A study of Arabidopsis thaliana with 13 samples.

Results

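The 200 most abundant transcripts of siliques from the balanced cross are described here, from Arabidopsis thaliana siliques hybridised to Affymetrix ATH1 arrays. They are the 200 probe sets with the highest mean signal over the 2 arrays of the balanced cross 2xX2x, out of 22596 probe sets that could be ranked (0.885%). A probe set is a group of short array oligonucleotides that reports 1 transcript or a few very similar ones. Control probe sets and a block of 150 probe sets for organelle genes were left out of the ranking. The annotation gave 1 gene for 52 of the 200, several genes for 8 and no gene for 140. The 52 are named below, and the others enter the counts, with 5 of them given by probe set identifier. The 2xX2x signals chose the members, so nothing is tested against 2xX2x, and those values are given as a description only.

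Each sample was a pool of whole siliques from several plants, and the mother is named before the father in each cross. The msi1 sample (1 array) was unfertilised siliques of the msi1-2 mutant in the C24 accession, taken 7 days after flowering. All other siliques were taken 5 days after pollination, with 2 arrays per cross. In fis1X2x a homozygous fis1-3 (=mea-3/f644) mother in Ler was pollinated by diploid C24. The paternal excess crosses were 2xX6x, a diploid C24 mother with hexaploid Col-1 pollen, and 2xX4x, a diploid C24 mother with tetraploid C24 pollen. The maternal excess crosses were 6xX2x, a hexaploid Col-1 mother with diploid C24 pollen, and 4xX2x, a tetraploid C24 mother with diploid C24 pollen. In 2xX2x both parents were diploid C24. The C24 mothers of 2xX6x, 2xX4x, 4xX2x and 2xX2x carried the A9-barnase transgene, which makes plants male sterile by killing the tapetum of the anther. The fis1-3 and 6xX2x mothers carried no such transgene according to the labels. For msi1, the paper describes male-sterile F1 plants from homozygous msi1 mutants crossed with a diploid C24 A9-barnase line. Such F1 plants carry a mutant and a wild-type allele, so their siliques would also have held wild-type ovules. Hexaploidy and the Col-1 accession, and fis1-3 and the Ler accession, cannot be told apart in these crosses. According to the paper, the hexaploid Col-1 mother was emasculated before pollination. That handling, and the lack of the transgene in the 6xX2x and fis1X2x mothers, cannot be told apart from their ploidy, accession or mutation either. Replicates are labelled as biological replicates.

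A young silique is a green, photosynthetic fruit wall around seeds in which endosperm, embryo and seed coat grow at different rates. Some of the transcripts that dominate such a sample come from genes that every growing or green cell uses, such as those for ribosomal proteins and photosystems. Others come from genes for secreted proteins that a single tissue makes in large amounts, such as seed coat enzymes, defensins and lipid transfer proteins. Extra maternal genomes usually give small seeds with little endosperm, and extra paternal genomes give large seeds with overgrown endosperm. FIS1 (MEDEA) and MSI1 belong to the Polycomb complex that represses genes in the central cell and endosperm. In whole siliques, fewer cells of a type and less RNA per cell cannot be told apart.

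The green tissue gene PSAN lay between 1085 and 2585 signal units on the 13 arrays, the seed coat genes BAN and DFR between 640.1 and 1839 and between 757 and 1886. The endosperm gene AGL62 was low throughout and differed between crosses (limma F test, adjusted p 0.0341): it had 30.6 in msi1, 53.5 and 44.3 in fis1X2x and 54.5 and 33.5 in 2xX6x, against 3.2 to 16.4 on the other 8 arrays, while the median of all probe sets on an array lay between 38.0 and 46.4. The anther gene A9 stayed at 18.7 or less. Of the 6 marker lists set up for the silique's tissues, 2 (valve, embryo) had no gene measured by a single-gene probe set, and only 5 of the 19 marker genes were measured in all. The array of 6xX2x replicate 1 stood apart in RNA quality: its signal at the 3′ end of actin was 17.3 times that at the 5′ end, against 0.561 to 4.44 on the other 12 arrays, and 2.06 for GAPDH, against 0.838 to 1.09. The part of this in the results was not tested, and values without that array are given where a call rests on it.

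The members averaged between 1683 and 9676 signal units in 2xX2x, with a median of 2429. Few probe sets carried much of the signal: the members held 15.0% to 21.5% of the summed signal of an array. Signals of different probe sets are not calibrated against each other, so a share of signal is not a share of transcripts. The members' share was 19.6% in msi1. On replicates 1 and 2 it was 19.9% and 21.5% in fis1X2x, 16.6% and 19.96% in 2xX6x, 17.2% and 18.7% in 2xX4x, 17.7% and 20.4% in 6xX2x, 15.0% and 18.1% in 4xX2x, and 16.96% and 21.4% in 2xX2x. The replicates of 2xX2x alone spanned most of the range of all arrays. In 6 of 6 crosses the share was higher on replicate 2, and in 5 of 6 after quantile normalization, which forces all arrays to 1 distribution. The next 200 probe sets by 2xX2x signal held 7.87% to 8.91%.

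**Figure D1:**
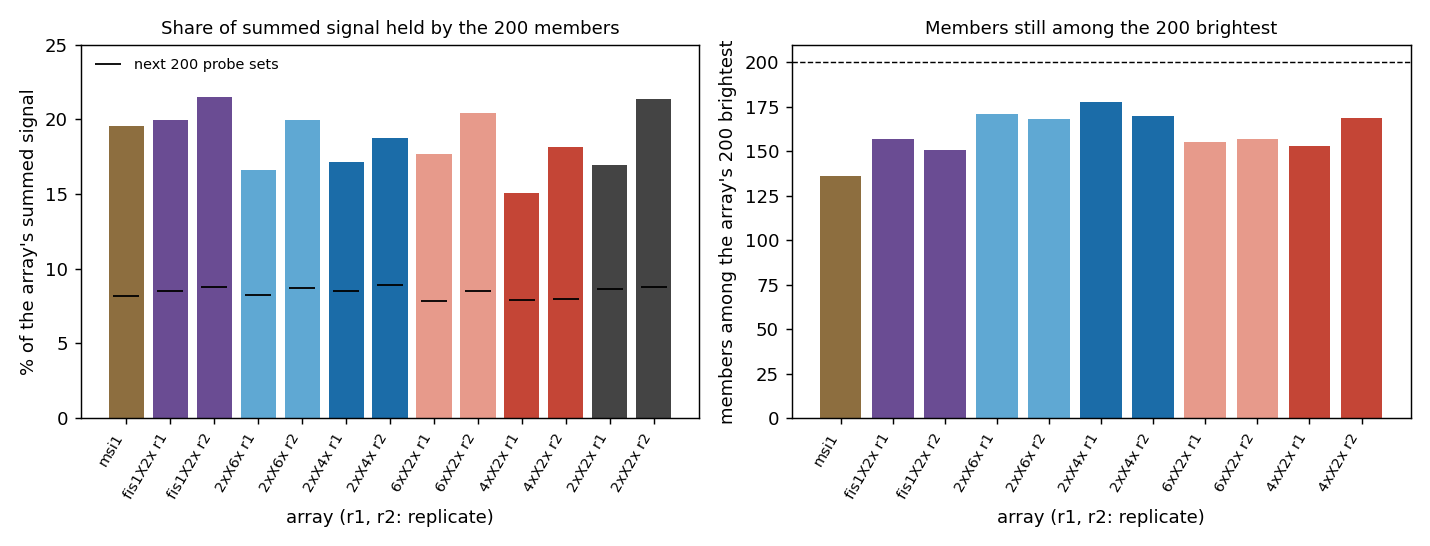
Left, share of each array's summed signal held by the 200 members (bars, %) and by the next 200 probe sets (dashes), with each array as 1 bar and r1 and r2 as replicates. Right, number of members among the 200 brightest probe sets of each of the 11 other arrays, with the dashed line at 200. The share ran from 15.0% to 21.5%, and the number retained from 136 in msi1 to 178 in 2xX4x replicate 1.

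Most of the members were also among the brightest probe sets of the other crosses. Of the 200, 86 were among the 200 brightest probe sets on all 11 other arrays, and 151 were among the 400 brightest on all 11. Only 2 were among the 200 brightest on none of them. By array, 136 were retained in msi1, 157 and 151 in fis1X2x, 171 and 168 in 2xX6x, 178 and 170 in 2xX4x, 155 and 157 in 6xX2x, and 153 and 169 in 4xX2x. For scale, the 2 arrays of 2xX2x that chose the members held 174 and 179 of them, and 153 were in both. The named members retained on all 11 arrays number 17. They include the photosynthesis genes LHCB4.1, RCA, PSAE-1, PSBW, PSBY and ATPC1 and no ribosomal protein gene. Retention is set by a rank limit, and the part that a gene's starting rank had in it was not tested. The ribosomal protein genes held their lowest summed shares in msi1 and 6xX2x, as given below. The median SD over the 11 arrays, defined below, was 0.35 for the ribosomal protein members and 0.37 for the photosynthesis members.

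Over the 11 other arrays, a member's spread was close to that of other transcripts. The SD of log2(signal + 7.4), where 7.4 is the 20th percentile of all signals, had a median of 0.37 for the members, 0.39 for the next 200 and 0.41 for the 15614 probe sets that passed a filter on low values. All 200 members passed that filter. The median stayed between 0.37 and 0.40 in each of the next 9 blocks of 200 probe sets by 2xX2x signal. After quantile normalization the medians were 0.31, 0.37 and 0.40, and after median centring 0.39, 0.40 and 0.41. Of the members, 62 (31%) stayed within 2-fold over the 11 arrays, against 27.3% of all filtered probe sets, and 10 (5%) had an SD above 1, against 5.73%. Probe sets that match several similar transcripts made up 13.5% of the members and 3.5% of all filtered ones. Genes of named members had a median length of 1652 bp in the TAIR10.1 annotation, against 2299 bp for 8537 filtered genes.

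**Figure D2:**
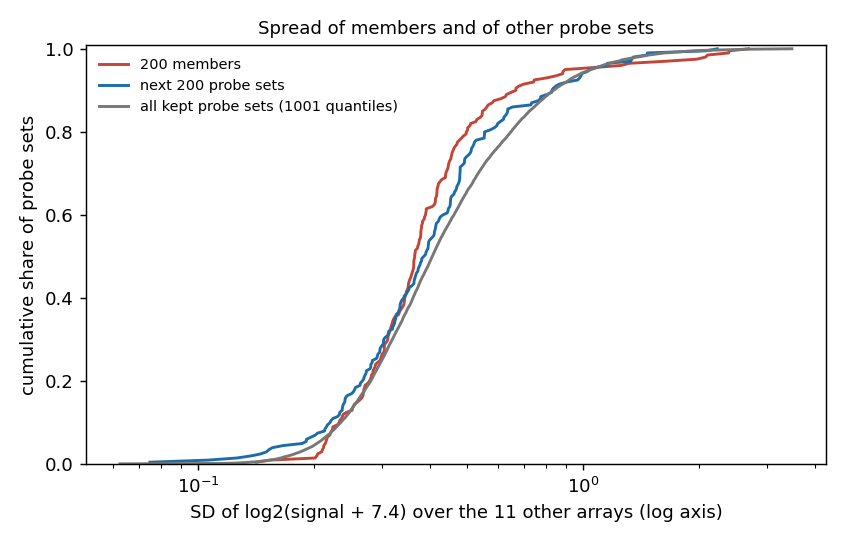
Cumulative share of probe sets (vertical axis) by their SD of log2(signal + 7.4) over the 11 other arrays (horizontal log axis), for the 200 members, the next 200 probe sets and all 15614 filtered probe sets. The curves lie close together, with medians of 0.37, 0.39 and 0.41, and the member curve has a tail of 10 probe sets above 1.

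The least variable named member was ATPC1, the gamma subunit of the chloroplast ATP synthase (SD 0.14). Its signal was 3136 in msi1, 2542 and 2669 in fis1X2x, 2582 and 2779 in 2xX6x, 2348 and 2498 in 2xX4x, 3154 and 2690.0 in 6xX2x, 2407 and 2453 in 4xX2x, and 2355 and 2131 in 2xX2x. Every array thus lay between 2131 and 3154. Next came AT2G34480, ribosomal protein L18a (SD 0.15, 1363 to 1978 over the 11 arrays), AT3G48140 of the B12D family (0.20, 1500.1 to 2313) and APA1, an aspartic protease (0.20, 1799 to 2705). PSBW of photosystem II (0.24), cICDH, the cytosolic isocitrate dehydrogenase (0.28), AT5G64400 (0.29) and GAPC2, glyceraldehyde-3-phosphate dehydrogenase of glycolysis (0.29), complete the 8 lowest.

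Limma's moderated F test over the 10 arrays of the other 5 crosses, from which 2xX2x and msi1 were left out, called 10 of the 200 members different between crosses (5%), against 6.85% of the 15614 probe sets tested, at an adjusted p under 0.05. The 2 shares are close, and the members' count ran from 7 to 14 when 1 array was left out, so no direction is read from them. Those with 1 gene were the 4 lipid transfer protein genes AT5G38160, AT5G38170, AT5G38180 and AT5G38195, the defensin gene LCR69, AT5G59845 and AT5G47350. Probe sets 266421_at, 255257_at and 260153_at had no gene in the annotation and are given because the count is small, after their values were seen. At an unadjusted p under 0.05, 31 members (15.5%) were below the threshold, against 21.2% of all probe sets. Of the 10 calls, that of 266421_at was lost without any 1 of 7 arrays, both of 2xX4x, 2xX6x and fis1X2x and replicate 1 of 4xX2x (adjusted p up to 0.153), that of AT5G59845 without 2xX4x replicate 2, 4xX2x replicate 2 or 6xX2x replicate 1 (up to 0.0774), that of AT5G47350 without 6xX2x replicate 1 (0.0520) and that of AT5G38180 without either 2xX4x array (up to 0.0780).

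**Figure D3:**
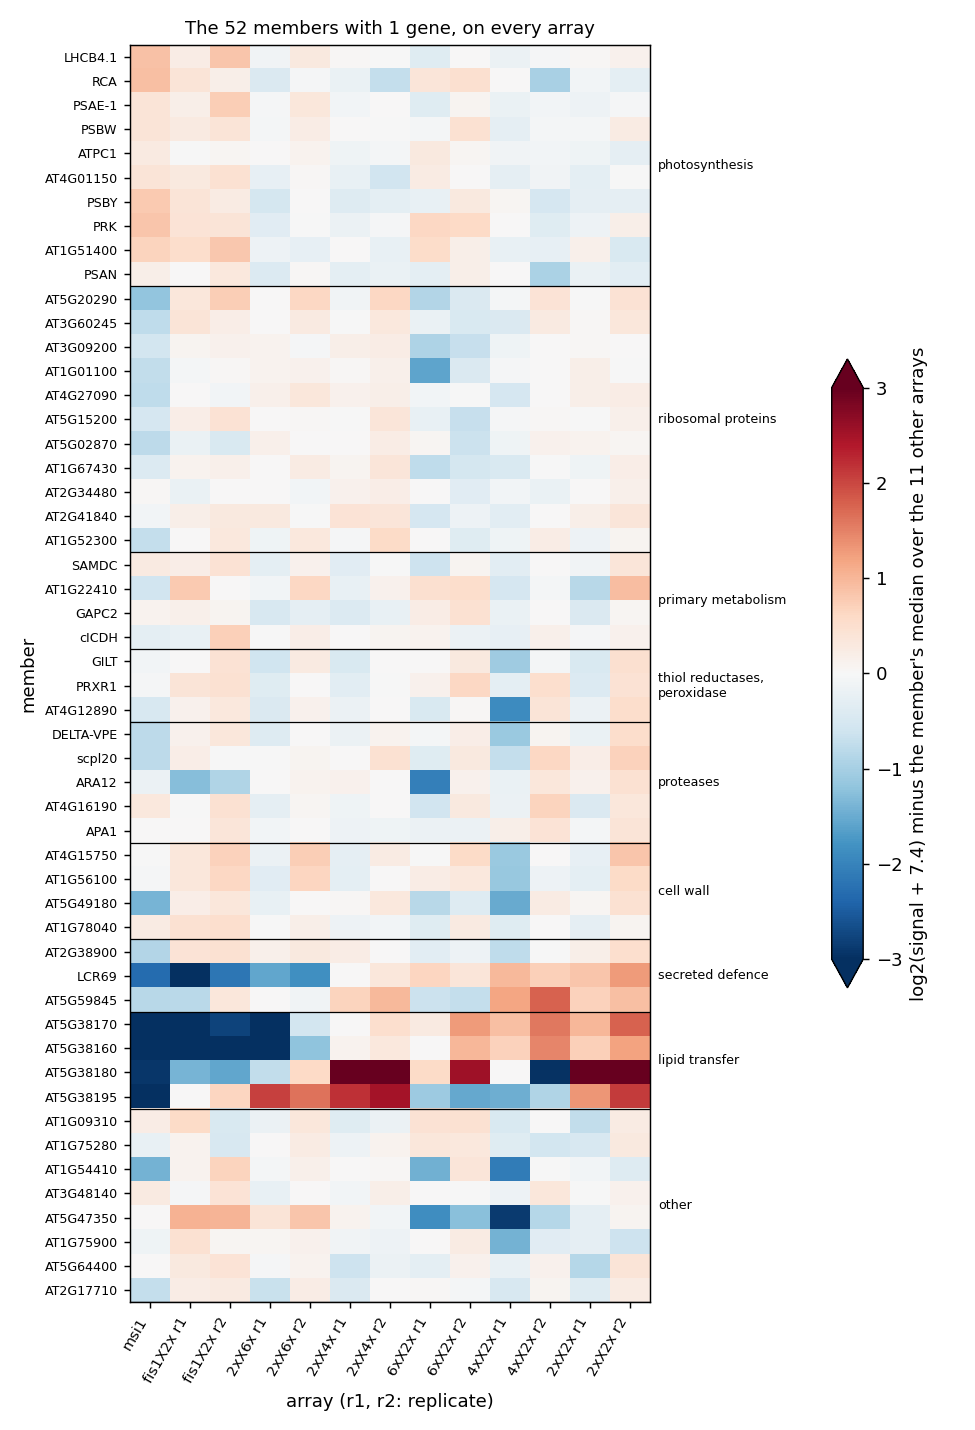
Signal of the 52 single-gene members (rows, grouped by role) on each of the 13 arrays (columns), as log2(signal + 7.4) minus the member's median over the 11 other arrays; colours stop at 3 in each direction. Rows of the lipid transfer genes, LCR69 and AT5G47350 stand out, while ATPC1 stayed between 2131 and 3154 signal units.

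Among the named members 10 serve photosynthesis, and none of them was called in the F test or in any of the 4 contrasts below. Their SDs over the 11 arrays ran from 0.14 to 0.55. RCA, which activates the carbon-fixing enzyme Rubisco, was at 7444 in msi1, 5202 and 4518 in fis1X2x, 2950 and 3896 in 2xX6x, 3468 and 2436 in 2xX4x, 5091 and 5525 in 6xX2x, 3975 and 2037 in 4xX2x, and 3766 and 3263 in 2xX2x. It was highest in msi1, and the fis1X2x and 6xX2x arrays lay above all those of 2xX6x, 2xX4x and 4xX2x. LHCB4.1, an antenna protein of photosystem II, reached 6121 in msi1 and 3908 and 5942 in fis1X2x, against 2619 to 4077 on the other 8 arrays outside 2xX2x. PRK, an enzyme of the Calvin cycle, had 3376 in msi1, against 1470.2 to 2907 in the 5 crosses. Together the 10 genes held 1.29% of the summed signal in msi1, 1.03% and 1.14% in fis1X2x, 0.78% and 0.92% in 2xX6x, 0.82% and 0.76% in 2xX4x, 0.93% and 1.00% in 6xX2x, 0.85% and 0.71% in 4xX2x, and 0.85% and 0.80% in 2xX2x. The share was thus highest in msi1 and fis1X2x. In fis1X2x against 2xX6x 9 of the 10 had a positive difference (median 0.46 on the log2 scale). Most members shared this direction: 74.5% of them were positive (median 0.24), against 44.7% of all probe sets (median −0.05). After quantile normalization 7 of the 10 were positive (median 0.21), with a median of −0.002 for all members. None of the 10 passed limma's test, and 2 had an unadjusted p under 0.05, as had 8.14% of all probe sets. The smallest adjusted p was 0.302 (AT1G51400, a small protein of photosystem II). Of the other photosynthesis genes matched by symbol or synonym, 5 passed the filter, and limma's F test called 0 of these, with 0 also at an unadjusted p under 0.05. In the contrasts of paternal against maternal excess and of 6xX2x against 4xX2x, 1 of the 5 had an unadjusted p under 0.05. Their SDs over the 11 arrays ran from 0.35 (HCF101) to 1.17 (PORB, 117.8 to 2053.5), with a median of 0.44.

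Ribosomal proteins form the largest named group, with 11 genes for both subunits. Their summed signal was 0.43% of the array in msi1, 0.71% and 0.74% in fis1X2x, 0.73% and 0.76% in 2xX6x, 0.73% and 0.86% in 2xX4x, 0.51% and 0.49% in 6xX2x, 0.62% and 0.74% in 4xX2x, and 0.72% and 0.75% in 2xX2x. The lowest shares were those of msi1 and of both 6xX2x arrays, and those of 2xX4x and 4xX2x overlapped. AT3G09200, the stalk protein P0, was at 2116 and 1913 in 2xX6x and 2229 and 2289 in 2xX4x, against 1031 and 1223 in 6xX2x and 1802 and 1965 in 4xX2x. Paternal and maternal excess overlapped for it, and its difference of 0.55 (SE 0.16) had an adjusted p of 0.0844, the smallest of the group. AT1G01100, the stalk protein P1, was lowest on the array of 6xX2x replicate 1, at 618, with 1374 on that of 6xX2x replicate 2. All 11 genes had a positive difference between paternal and maternal excess (0.21 to 0.62, median 0.35), against 51.4% of all probe sets. Limma called 0 of the 11, and 4 had an unadjusted p under 0.05, as did 20.9% of all probe sets and 13% of all members. The 11 differences were positive also after quantile normalization, after median centring and without any 1 of the 10 arrays.

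Primary metabolism had 4 named members, and none was called. SAMDC, which makes the decarboxylated substrate of polyamine synthesis, had 2969 to 6173 over the 11 arrays. AT1G22410, an enzyme of the first step of the shikimate pathway, differed more between the 2 arrays of 2xX2x (1328 and 4523) than between the lowest and highest of the other 11 (1588 and 4093). GAPC2 lay at 2196 to 2649 in paternal excess, against 2693 to 4245 in maternal excess, without overlap. Of all filtered probe sets 5.17% lay lower in paternal excess without overlap, as did 3 members. The limma difference of GAPC2, −0.46 (SE 0.17), had an adjusted p of 0.161.

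The brightest member was GILT, a gamma-interferon-responsive lysosomal thiol reductase homologue. Its signal was 8593 in msi1, 9133 and 12155 in fis1X2x, 5969 and 10971 in 2xX6x, 6592 and 9070 in 2xX4x, 9151 and 11138 in 6xX2x, 4321 and 8677 in 4xX2x, and 6617 and 12734 in 2xX2x. Replicate 2 was the higher array in every cross, and GILT was never below rank 5. AT4G12890, a thiol reductase of the same family, lies 9 loci from GILT on chromosome 4, with the carboxypeptidase gene scpl20, also a member, between them. It had 983 and 4739 in 4xX2x, so that 4xX2x replicate 1 was its lowest array, and 2605 to 4571 in msi1 and the other 4 crosses outside 2xX2x. PRXR1, a class III peroxidase, stayed within 3232 to 6365. None of these 3 genes was called.

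Proteases were represented by 5 genes, none of them called. DELTA-VPE, a vacuolar processing enzyme of the seed coat, had 2209 to 6047 over the 11 arrays. ARA12, a subtilisin-like protease that acts in seed coat mucilage, was at 2256 in msi1, 1048 and 1362 in fis1X2x, 2577 and 2728 in 2xX6x, 2778 and 2546 in 2xX4x, 606 and 2806 in 6xX2x, 2211 and 3237 in 4xX2x, and 2776 and 3489 in 2xX2x. Both fis1X2x arrays and 6xX2x replicate 1 were low, and the difference between fis1X2x and 2xX6x of −1.15 (SE 0.55) had an adjusted p of 0.638.

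Cell wall genes were 4: AT4G15750 and AT1G56100, of the family that inhibits invertases and pectin methylesterases, AT5G49180, a pectin methylesterase, and AT1G78040, of the Ole e 1 and extensin family. AT4G15750, the brightest of them, had 5481 in msi1, 6993 and 8917 in fis1X2x, 4862 and 9234 in 2xX6x, 4564 and 6504 in 2xX4x, 5414 and 8158 in 6xX2x, 2530 and 5502 in 4xX2x, and 4605 and 9843 in 2xX2x. The replicates within a cross differed by as much as the crosses. AT5G49180 was at 1098 in msi1 and at 1013 in 4xX2x replicate 1, against 1631 to 3654 on the other 9. All 4 differences between paternal and maternal excess were positive (0.10 to 0.65), against 51.4% of all probe sets, and none was called. With 4 genes no direction is read from this. The array of 4xX2x replicate 1, on which AT4G15750, AT1G56100 and AT5G49180 were all lowest, also had the lowest member share of all arrays (15.0%).

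The members that varied most were the 4 lipid transfer protein genes. Such genes encode small secreted proteins that bind lipids, and these 4 lie within a run of 6 neighbouring loci on chromosome 5 that holds 4 members, AT5G38190 and a pseudogene. Similar sequences in such a run can share array signal, so the values of neighbours are not certain to be independent. Their SDs were 2.11 to 2.69, and together they held 0.28% and 0.39% of the summed signal in 2xX2x.

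AT5G38160 had 19.6 in msi1, 32.3 and 51.6 in fis1X2x, 45.7 and 513 in 2xX6x, 1277 and 1478 in 2xX4x, 1186 and 2366 in 6xX2x, 1929 and 3312 in 4xX2x, and 1949 and 2739 in 2xX2x. AT5G38170 had the same order of crosses outside 2xX2x, with 24.2 in msi1, 116 and 229 in fis1X2x, 190.2 and 1108 in 2xX6x, 1624 and 2320.4 in 2xX4x, 1965 and 3942 in 6xX2x, 3036 and 4883 in 4xX2x, and 3257 and 5513 in 2xX2x. Both genes were therefore low in msi1, fis1X2x and 2xX6x and high in maternal excess and 2xX2x, and their F tests gave adjusted p of 0.00475 and 0.00833. The arrays on which they were low were also those with the higher AGL62 signals, the 1 of 3 endosperm markers that was measured, and the part of this in the result was not tested. Signals below the array's median, as in msi1, are not shown to be above background. The 2xX6x father was Col-1 and the fis1X2x mother Ler, which cannot be told apart from the dose or the mutation. Neither passed the test of paternal against maternal excess (differences −2.11 and −1.78, SE 0.58 and 0.49, adjusted p 0.0623 and 0.0624).

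AT5G38180 was highest in the crosses with a diploid C24 mother and a C24 father. It had 956 and 806 in 2xX4x and 1710 and 1816 in 2xX2x, against 1.4 in msi1, 17.9 and 15.1 in fis1X2x, 32.7 and 93.9 in 2xX6x, 91.6 and 384.0 in 6xX2x, and 59.3 and 1.2 in 4xX2x. Its F test gave an adjusted p of 0.013, which became 0.0743 with no offset, 0.0780 without 2xX4x replicate 1 and 0.0701 without 2xX4x replicate 2.

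AT5G38195 had another pattern: 2095 and 1549 in 2xX6x and 2298 and 2856 in 2xX4x, against 228.5 and 166 in 6xX2x and 175.5 and 263.5 in 4xX2x. Both paternal excess crosses lay above both maternal excess crosses with no overlap, which held for 14 members and 6.29% of all filtered probe sets. The 4 paternal excess arrays averaged 2199 ± 540.2 and the 4 maternal excess arrays 208 ± 45.9 (SD), a fitted fold of 10.2 (log2 difference 3.34, SE 0.23, adjusted p 1.5e-05). It had 16.4 in msi1, 499 and 789 in fis1X2x, and 1258 and 2161 in 2xX2x.

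**Figure D4:**
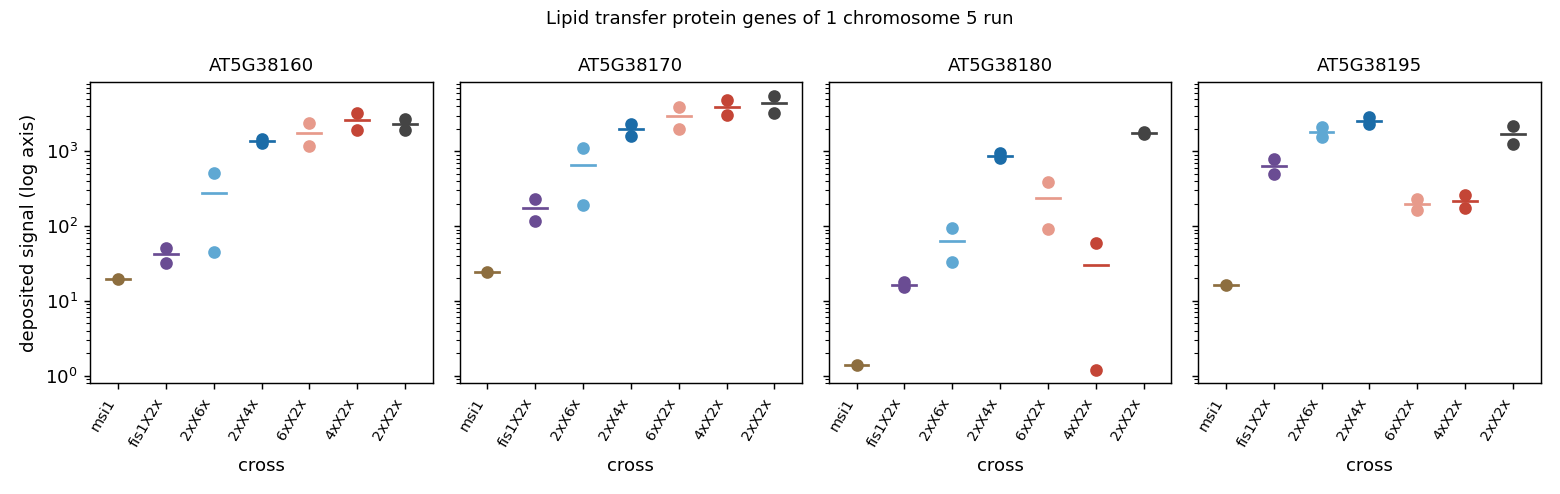
Deposited signal (log axis) of the 4 lipid transfer protein genes of 1 run on chromosome 5 in each cross, with a point per array and a line at the mean. The means of AT5G38160 and AT5G38170 were lowest in msi1 and fis1X2x, with 2xX6x replicate 1 below fis1X2x replicate 2, AT5G38180 was at 806 signal units or more only in 2xX4x and 2xX2x, and AT5G38195 was higher in paternal than in maternal excess on all arrays.

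Of the 3 small defence-related proteins among the members, 2 were called in the F test. LCR69, a plant defensin, was at 278 in msi1, 82 and 308 in fis1X2x, 476 and 388 in 2xX6x, 1408 and 1793 in 2xX4x, 2203 and 1814 in 6xX2x, 2759 and 2334 in 4xX2x, and 2500 and 3438 in 2xX2x. As with AT5G38170, msi1, fis1X2x and 2xX6x were low (F test adjusted p 0.0018). They were also the arrays with the higher AGL62 signals, with the limits of that marker given above. AT5G59845, of the gibberellin-regulated GASA family of small cysteine-rich proteins, had 701 and 662 in 6xX2x, against 2497 and 3759 in 4xX2x. It had 608 in msi1, 621 and 1385 in fis1X2x, 1095 and 1018 in 2xX6x, 1736 and 2153 in 2xX4x, and 1776 and 2066 in 2xX2x (F test over the 5 crosses, adjusted p 0.0198). Both crosses with a hexaploid Col-1 parent were lower than those with a tetraploid parent, and msi1 and fis1X2x, which have no such parent, also lay below all arrays of 2xX4x, 4xX2x and 2xX2x. AT2G38900, a serine protease inhibitor, stayed within 1263 to 3197 and was not called.

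Between paternal and maternal excess, 5 members were called higher (2.5%), against 3.38% of all probe sets, and 1 lower (0.5%), against 2.48%. The higher ones were AT5G38195, AT5G47350 and, without a gene, 266421_at, 266353_at and 255257_at, and the lower one was LCR69. For 255257_at (log2 difference 1.46, adjusted p 0.0029), only 4xX2x was low among the 4 interploidy crosses. Its 6xX2x signals, given below, lay within or above the range of paternal excess, so this call does not separate paternal from maternal excess. AT5G47350, of the alpha/beta hydrolase family, was at 2496 and 3388 in 2xX6x and 2071 and 1813 in 2xX4x, against 521 and 803 in 6xX2x and 256 and 1057 in 4xX2x. It had 1912 in msi1, 3971 and 3854 in fis1X2x and 1590.1 and 2020.4 in 2xX2x. Paternal excess lay above maternal excess on all arrays, by 4.05-fold (log2 difference 2.02, SE 0.37, adjusted p 0.0091). LCR69 was 2.7-fold lower in paternal excess (−1.44, SE 0.33, adjusted p 0.0322). That call was lost without any 1 of the 8 arrays of the 4 interploidy crosses, with an adjusted p of up to 0.123, and with no filter (0.0555). Probe set 266421_at was higher by 1.92 (SE 0.44, adjusted p 0.0287), and 266353_at by 1.75 (SE 0.40, adjusted p 0.0292). Both lost the call without 6xX2x replicate 1 (0.0941 and 0.0963), without either array of 2xX4x or of 2xX6x and with no filter (0.061 and 0.054), and 266421_at also without 4xX2x replicate 1 (0.0684). Without 6xX2x replicate 1, the array with the high 3′ to 5′ ratio, 3 members were called, AT5G38195, AT5G47350 and 255257_at, and 3 also without 2xX4x replicate 1, 2xX4x replicate 2 or 2xX6x replicate 1.

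**Figure D5:**
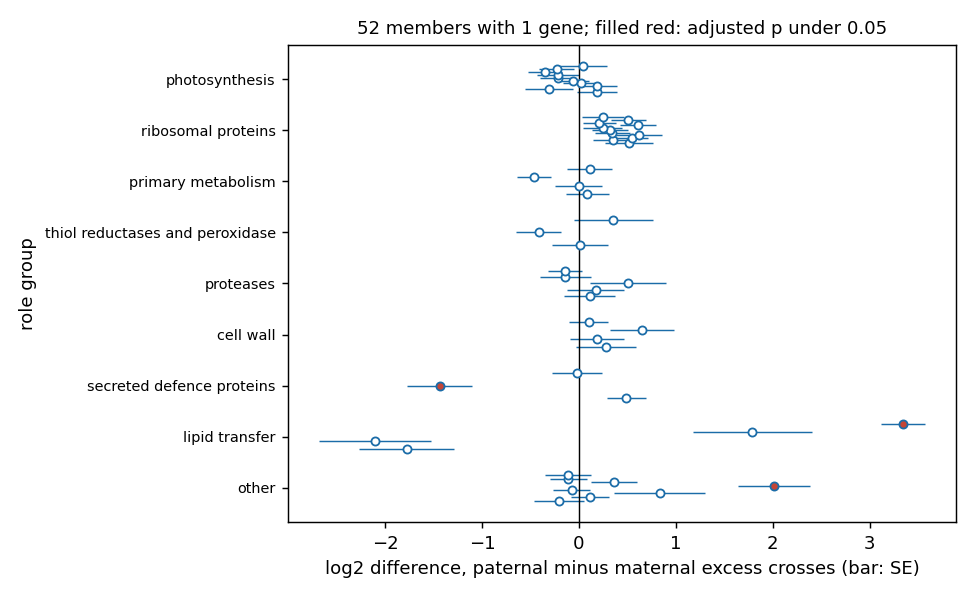
Log2 difference between the paternal excess (2xX6x, 2xX4x) and maternal excess (6xX2x, 4xX2x) crosses for the 52 single-gene members (points, bars show the SE), by role group; filled points have an adjusted p under 0.05. Only AT5G38195 and AT5G47350 among the higher and LCR69 among the lower are filled, and all 11 ribosomal protein points lie to the right of 0.

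Between the paternal excess crosses, 2xX6x against 2xX4x, limma called 0 members higher (background 0.211%) and 0 lower (0.134%), and 5 members (2.5%) had an unadjusted p under 0.05, against 3.7% of all probe sets. With array weights 1 member was called, and 1 also without 2xX6x replicate 2, without either 4xX2x array or without either fis1X2x array. The lowest difference among named members was that of AT5G38180, at −3.80 (SE 0.87, adjusted p 0.199).

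Between the maternal excess crosses, 6xX2x against 4xX2x, 2 members were called higher (1%), against 1.73% of all probe sets, and 1 lower (0.5%), against 1.38%. AT5G59845 was 4.46-fold lower in 6xX2x (−2.16, SE 0.37, adjusted p 0.0127), a call lost without 6xX2x replicate 1 (0.0801) and without 4xX2x replicate 2. Probe set 255257_at was at 3022 and 2616 in 6xX2x, against 230.2 and 175 in 4xX2x, 13.5-fold higher (3.76, SE 0.31, adjusted p 0.00036). Probe set 259660_at was higher by 1.36 (SE 0.31, adjusted p 0.0427), which was lost without any 1 of the 8 arrays of the interploidy crosses (up to 0.203), and with no offset, no filter, 12 arrays including 2xX2x, array weights or no variance trend (0.0516 to 0.102). Without 6xX2x replicate 1, only 255257_at was called, and without 6xX2x replicate 2, 5 members were. Over all members 138 of 200 differences were positive, with a median of 0.24, against −0.01 for all probe sets. After quantile normalization 98 were positive and the median was −0.01, whereas after median centring 125 were positive, with a median of 0.19, against −0.06. Without 4xX2x replicate 1 the median was 0.07.

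Between fis1X2x and 2xX6x, 0 members were called higher (background 0.115%) and 2 lower (1%), against 0.147%, and 17 members (8.5%) had an unadjusted p under 0.05, 10 of them higher, against 8.14% of all probe sets. Both called probe sets have no gene in the annotation. Probe set 255257_at had 131 and 95.9 in fis1X2x, against 1909 and 3015 in 2xX6x, 20.1-fold lower (−4.33, SE 0.31, adjusted p 0.00073). It was thus low only in fis1X2x and 4xX2x, with 1820.1 in msi1, 1565 and 2160 in 2xX4x, and 1692 and 2979 in 2xX2x. Probe set 260153_at had 517 and 374 in fis1X2x, against 1974 and 1664 in 2xX6x, 4.07-fold lower (−2.02, SE 0.27, adjusted p 0.0128), and lay between 1302 and 2165 on the other arrays. Its call was lost without either 2xX6x array or without fis1X2x replicate 2 (up to 0.116), and without 2xX6x replicate 2 only 1 member was called. Over all members 149 of 200 differences were positive, with a median of 0.24, against −0.05 for all probe sets. After quantile normalization 100 were positive, with a median of −0.002, against −0.01, and after median centring 159, with a median of 0.34, against 0.05.

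For msi1, with 1 array, size alone was compared, without a test. Of the members, 0 lay at least 1 on the log2 scale above the highest of the 10 arrays of the other 5 crosses (0.57% of all probe sets) and 2 (1%) at least 1 below the lowest (0.672%). These were AT5G38170 and AT5G38195, at 24.2 and 16.4, against lowest values of 116 and 166 in the 5 crosses. Both msi1 values lay below the median of that array (41.7) and are not shown to be above background. Set against that median, the lowest values were still higher by 1.33 and 1.82 on the log2 scale. The median is not a measured background, so these are not lower limits of the differences. The lipid transfer genes together held 0.0019% of the summed signal in msi1, against 0.021% to 0.281% in the 5 crosses and 0.279% and 0.390% in 2xX2x.

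At the edge of the list, the last 3 named members were AT1G52300, ribosomal protein L37 (rank 196, 1713 ± 198 in 2xX2x, SD, n = 2), AT2G17710 (rank 197, 1712 ± 535) and AT5G38195 (rank 198, 1709 ± 638). The first 3 single-gene probe sets outside it were ACLA-1, a subunit of ATP citrate lyase (rank 208, 1663 ± 483), AT4G21620 (rank 211, 1655 ± 153) and AT2G27710, an acidic ribosomal protein (rank 214, 1635 ± 304). The step at the threshold was smaller than the SD between the 2 arrays.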

How the data were processed

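Whole-silique RNA was measured on 13 ATH1 arrays, 1 for each sample (msi1 1, all other crosses 2). The deposited values are linear signal intensities, made by the authors with MAS5 and scaled to a common trimmed mean. Detection calls were not used here. Array number limits the precision. The 64 control probe sets of 22810 were left out.

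Signals were transformed as log2(signal + 7.4). Probe sets above the 40th percentile on at least 2 of the 10 fitted arrays were kept (15614 kept, 7132 removed). A model with 1 mean per cross was fitted with limma 3.58.1 in R 4.3.3 (eBayes with trend; 5 residual and 5.33 prior degrees of freedom), and p-values were adjusted by Benjamini-Hochberg over all kept probe sets. Fold changes are on the log2(signal + 7.4) scale. The steps were tested on simulated data. Figures were drawn with Python 3.11.15 and matplotlib 3.10.9.

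Genes came from the platform annotation and TAIR10.1 names (52 of 52 matched). Roles came from synonyms in that table or from textbook knowledge. No sequences or promoters were analysed here. The named genes were single-gene members: the 20 brightest, the 8 least and 8 most variable, those past the threshold in a contrast, up to 6 per role and 3 on either side of the rank limit. Some were left out for length. The members, lists and tests were chosen with earlier results of these data known. Alternatives were other offsets, filters, scalings, array weights, no trend, 12 arrays with 2xX2x, the replicate block, other member rules and leaving out each array in turn.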

Additional observations from a re-analysis of the deposited data

How the results depend on the processing

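The number of members called in the F test (10) was 7 to 14 when 1 array was left out, 3 among the 100 brightest and 19 among the 400 brightest. Between paternal and maternal excess (6 called), 3 were called with no filter, 2 among the 100 and 16 among the 400 brightest, and 3 to 9 with 1 array left out. For 2xX6x against 2xX4x (0 called), 1 was called with array weights and among the 400 brightest, and 0 to 1 with 1 array left out. For 6xX2x against 4xX2x (3 called), 5 were called with the replicate block, 1 among the 100 and 8 among the 400 brightest, and 1 to 5 with 1 array left out. For fis1X2x against 2xX6x (2 called), 4 were called when members were chosen on 2xX2x replicate 1 alone, 1 on 2xX2x replicate 2 alone, 0 among the 100 and 4 among the 400 brightest, and 1 to 2 with 1 array left out. Fewer or more members are by construction part of the changes with 100 or 400. For all others the cause was not tested. The median SD of the members was 0.34 to 0.38 with 1 of the 11 arrays left out, and the number among the 200 brightest on every other array was 86 to 91. Choosing on 1 array alone shared 174 (replicate 1) or 179 (replicate 2) of 200 members.

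The labels do not say that a replicate number marks a shared batch, so the numbers were not taken as pairing the samples. Correlations of same-numbered deviations between crosses ran from −0.14 to 0.29. They were above 0 in 8 of 10 pairs of crosses and over 0.1 in 4, so a shared batch is not excluded. The members did share a replicate difference, with 129 to 165 of 200 higher on replicate 2 in each of 6 crosses. Their median difference by cross was 0.13 to 0.35 on the log2 scale, against −0.09 to 0.07 for all filtered probe sets. With the replicate block, 11 members were called in the F test, 9 between paternal and maternal excess, 0 between 2xX6x and 2xX4x and 2 between fis1X2x and 2xX6x. Of 210 values of single called members under the alternatives other than leaving out an array, 200 kept their side of the threshold, 10 lost it (5 of them of 259660_at) and 0 changed sign. The medians over all members in each contrast, and the ribosomal protein count under other scalings, were recomputed after seeing the data. Depth is not defined for arrays, and 2 arrays a cross limit what the tests can call.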
